A study of Mus musculus with 5 samples.

Results

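Nnat, Peg3 and Cdkn1c are imprinted genes, and each was measured by 1 probe on arrays of developing mouse cerebellum. The probes were those whose single gene symbol is one of these names. They are 3 of the 773 genes and 3 of the 897 probes in the table. The 3 genes were chosen by their known imprinting together with their percent values over the 5 ages, so every such value is a description and carries no test. Total RNA of whole cerebellum was compared at embryonic day 18 (E18) and at 4 ages after birth, named by postnatal day (P7, P14, P21, P56), in order to learn which genes take part in building this brain region. Each age is 1 column, deposited as the mean of 2 array experiments, and no genotype, strain or treatment is given in the labels. With 1 column per age there is no spread between samples, no replicate check and no p-value, and the number of arrays limits the precision. Whole tissue was used, so fewer cells of a type and less RNA per cell cannot be told apart.

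In an imprinted gene, the copy from one parent is expressed and the copy from the other is kept silent, through DNA methylation laid down in the germ line. Nnat and Peg3 are expressed from the paternal copy and Cdkn1c from the maternal one. Nnat encodes neuronatin, a small membrane protein of the endoplasmic reticulum that resembles the regulators of calcium pumps. Peg3 encodes a large zinc finger protein that binds DNA. Cdkn1c encodes p57, an inhibitor of cyclin-dependent kinases (CDKs) that holds cells out of division. In the cerebellum, granule cell progenitors go on dividing after birth and then leave the cell cycle, while Purkinje cells are already formed before birth.

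Promoters are shown for those of the 3 genes that had a matching reference sequence. RefSeq promoter sequences of build GRCm38.p6 matched 2 of the 3 genes, Nnat and Peg3, and the 250 bases upstream of each start site are printed 5′ to 3′ on the gene's strand. Nnat lies on the plus strand at chr2:157559828-157560077 and Peg3 on the minus strand at chr7:6730420-6730669. Capitals mark a full match to one of 2 palindromes, searched on both strands and chosen after the sequences were seen. They are the core CGCATGCG of the NRF1 motif and the cyclic AMP response element TGACGTCA.
Nnat: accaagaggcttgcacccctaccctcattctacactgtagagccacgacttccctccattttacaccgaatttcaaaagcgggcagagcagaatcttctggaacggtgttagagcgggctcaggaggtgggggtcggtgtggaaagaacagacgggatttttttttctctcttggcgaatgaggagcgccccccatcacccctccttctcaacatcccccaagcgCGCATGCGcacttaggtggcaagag
Peg3: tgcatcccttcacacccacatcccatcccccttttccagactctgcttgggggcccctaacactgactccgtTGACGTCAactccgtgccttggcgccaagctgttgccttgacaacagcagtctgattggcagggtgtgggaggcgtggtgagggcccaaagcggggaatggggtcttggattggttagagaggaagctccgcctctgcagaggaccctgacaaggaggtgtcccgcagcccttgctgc
The Nnat promoter held the NRF1 core, whose first base lies 25 bases upstream of the start site, as did 1.55% of 32851 promoter windows of the same length. In the Peg3 window the response element began 178 bases upstream, which likewise 1.55% of windows had. Peg3 also had 2 matches to CCAAT on either strand, beginning 124 and 69 bases upstream, where 33.8% of windows had at least 1 and the Nnat window had 0. The 3 motifs do not overlap in these windows. CpG dinucleotides, the sites of methylation, numbered 12 in the Nnat window and 8 in that of Peg3, against a median of 6 over all windows (quartiles 2 and 16). Methylation was not measured here, and a match in these letters does not show binding.

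In the deposited table the lowest value is 0.01 and the highest 100. It was taken to hold percentages in which every experiment was scaled to the age where that probe was brightest, and both experiments were then averaged. They compare ages of the same probe, never the levels of different genes. A value of exactly 100 then means that both experiments were highest at that age, and any other mean limits what each of them can have been. A gene is said to have risen or fallen when it differed by 2-fold or more, and differences on the log2 scale are the later age minus the earlier one.

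Markers of granule and Purkinje cells were followed with age. Each probe is scaled to its own highest age, so these values cannot check the tissue label. Measured markers of mature granule cells were 5 of 5, and all rose from E18 to P56, Gabra6 from 0.72% to 99.8%. Markers of Purkinje cells were 3 of 5, and all rose, Pcp2 from 22.5% to 82.7%. Of all probes 22.6% rose in this comparison. The median difference of all probes from E18 to P56 was -1.07, so the scale between columns matters. Both granule and Purkinje counts were the same with each column divided by its median and with quantile normalization. Under these scalings 30.3% and 27.4% of all probes rose. Elsewhere, counts of listed genes under these scalings are given where they were computed and differ. Shares of all probes are on the deposited scale unless a scaling is named.

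Cdkn1c fell early, and most of its signal was gone by P14. It stood at 100% at E18, 43.1% at P7, 7.20% at P14, 7.99% at P21 and finally 5.81% at P56. The fetal age is far above the others, P7 lies between, and the last 3 ages are close together near the bottom of the range. From E18 to P56 it fell 17.2-fold (-4.11 on the log2 scale), and 26 of the 897 probes fell further. Nnat also fell and Peg3 rose in that comparison, where 52.5% of all probes fell and 22.6% rose. That majority of falls depends on the scale: with columns divided by their medians 16.4% of probes fell and 30.3% rose, and with quantile normalization 23.0% and 27.4%.

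The timing of the fall in Cdkn1c divides into 2 steps. From E18 to P7 it fell 2.32-fold (-1.21), a step in which 2.79% of probes fell and 10 probes fell further. From P7 to P14 it fell 5.98-fold (-2.58), a step in which 24.7% of probes fell. With columns divided by their medians 2.34% and 11.7% of probes fell in these steps, and with quantile normalization 6.35% and 18.3%. On the deposited scale just 8 probes (0.89% of all probes) fell in both steps. Besides Cdkn1c they are those of Sfrp2, Dpysl3, Sst, Mfap2 and Syt5 and both probes of Ebf3. This count was not repeated with column medians or quantile normalization, so it may differ there. At P14 Cdkn1c was 13.9-fold below E18, and 2 probes of the table had a lower ratio of P14 to E18. No later step reached 2-fold on the deposited scale, though with quantile normalization the difference from P14 to P21 was 2.14.

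The averaging bounds what either experiment can have shown for Cdkn1c. At E18 both stood at 100. At P14 neither can have been above 14.4%, so each fell at least 6.94-fold from E18, and by P56 at least 8.61-fold. At P7 an experiment can have stood anywhere from 0% to 86.2%, so the first step was at least 1.16-fold in each. The means at P7 and P14 are 35.9 points apart, too few to fix the direction of the second step in both experiments. The means at P14, P21 and P56 differ by at most 2.18 points, and the ranges possible for 1 experiment overlap, so these ages have no settled order.

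**Figure D1:**
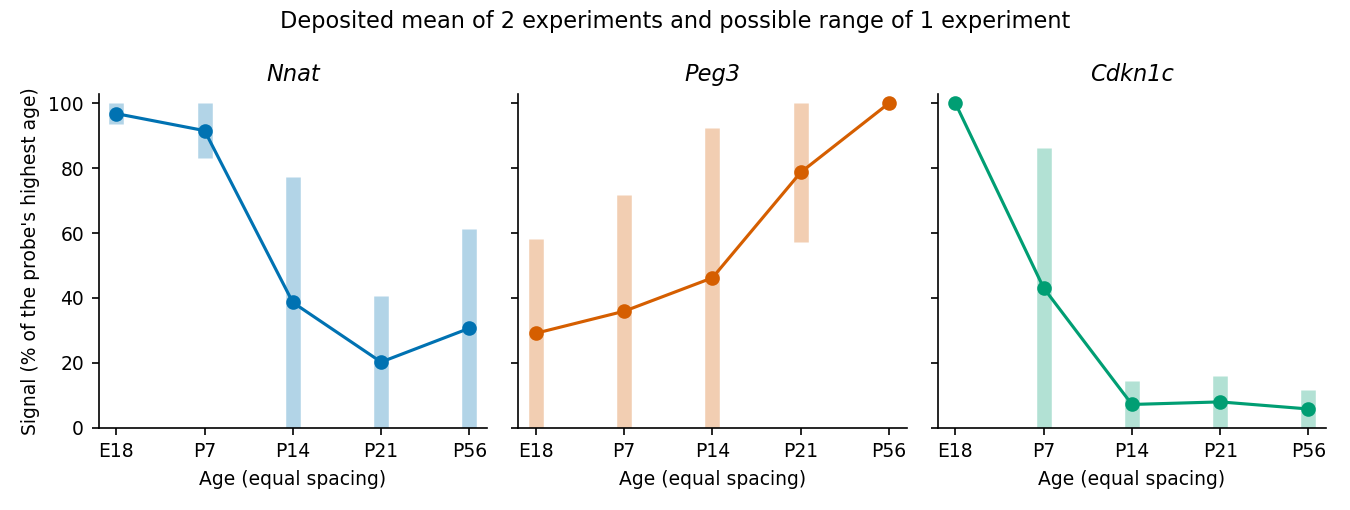
Signal of Nnat, Peg3 and Cdkn1c as the percent of the probe's highest age (vertical axis) at the 5 ages (horizontal axis, equally spaced). Points are the deposited means of 2 experiments, and pale bars span the values that 1 experiment can have had if each lies between 0% and 100%; Cdkn1c is at 7.20% by P14, while Peg3 reaches 100% at P56.

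Nnat was still near its highest level at P7 and fell after that. It stood at 96.8% at E18, 91.6% at P7, 38.6% at P14, 20.3% at P21 and finally 30.7% at P56. The first 2 ages are high and near each other, and the last 3 are low, with the lowest at P21 and not in the adult. From E18 to P56 Nnat fell 3.16-fold (-1.66), and 218 probes fell further. With each column divided by its median this difference was -0.65 and no longer 2-fold, and with quantile normalization it was -0.98.

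Most of the change in Nnat came between P7 and P14, when it fell 2.37-fold (-1.25); this became -0.67 with columns divided by their medians and -0.99 with quantile normalization. From P14 to P21 the difference was 1.91-fold downward, short of the 2-fold rule. From P21 to P56 the level went back up 1.51-fold (0.60), again under 2-fold. In that last step 75 probes had a larger upward difference. For scale, the 2 probes of a gene, in the 14 genes that have 2, disagreed on this step by a median of 0.37 and at most 0.97 (log2). They were read in the same columns and leave out variation between samples. On the earlier steps the medians were 0.24 from E18 to P7, 0.37 from P7 to P14 and 0.47 from P14 to P21. The largest disagreements there were 3.55, 2.97 and 1.69, which also limits what the single probes of Cdkn1c and Peg3 can show.

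Nnat is at 100% at no age, which fixes how its experiments differed if both were scaled in this way. Only E18 and P7 can have reached 100 in an experiment, so one experiment was highest at E18 with P7 at 83.1%, and the other was highest at P7 with E18 at 93.6%. The order of E18 and P7 was therefore opposite in the 2 experiments, by 1.20-fold one way and 1.07-fold the other. Both were lower at P14 than at E18, by at least 1.21-fold, and lower at P21 by at least 2.31-fold. The ranges for P14, P21 and P56 all start at 0%, so the low at P21 and the return at P56 cannot be placed in both experiments.

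Peg3 rose with age and was highest in the adult. It stood at 29.1% at E18, 35.9% at P7, 46.2% at P14, 78.7% at P21 and finally 100% at P56. Each age is above the one before it, a pattern that 66 of the 897 probes (7.36%) share. From E18 to P56 Peg3 rose 3.43-fold (1.78), and 112 probes rose further. Relative to the median difference of all probes its difference was 2.85, because the median probe went down on the deposited scale.

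No single step of Peg3 reached 2-fold. The largest was from P14 to P21, at 1.70-fold (0.77), which 41 probes exceeded; with columns divided by their medians it became 1.16 and passed 2-fold. The other steps were 1.23-fold from E18 to P7, 1.29-fold from P7 to P14 and 1.27-fold from P21 to P56. Both experiments were highest at P56, and each was at least 1.72-fold above E18, at least 1.39-fold above P7 and at least 1.08-fold above P14. The gap of 49.6 points between E18 and P21 falls just short of the 50 points above which neither experiment could have gone the other way.

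**Figure D2:**
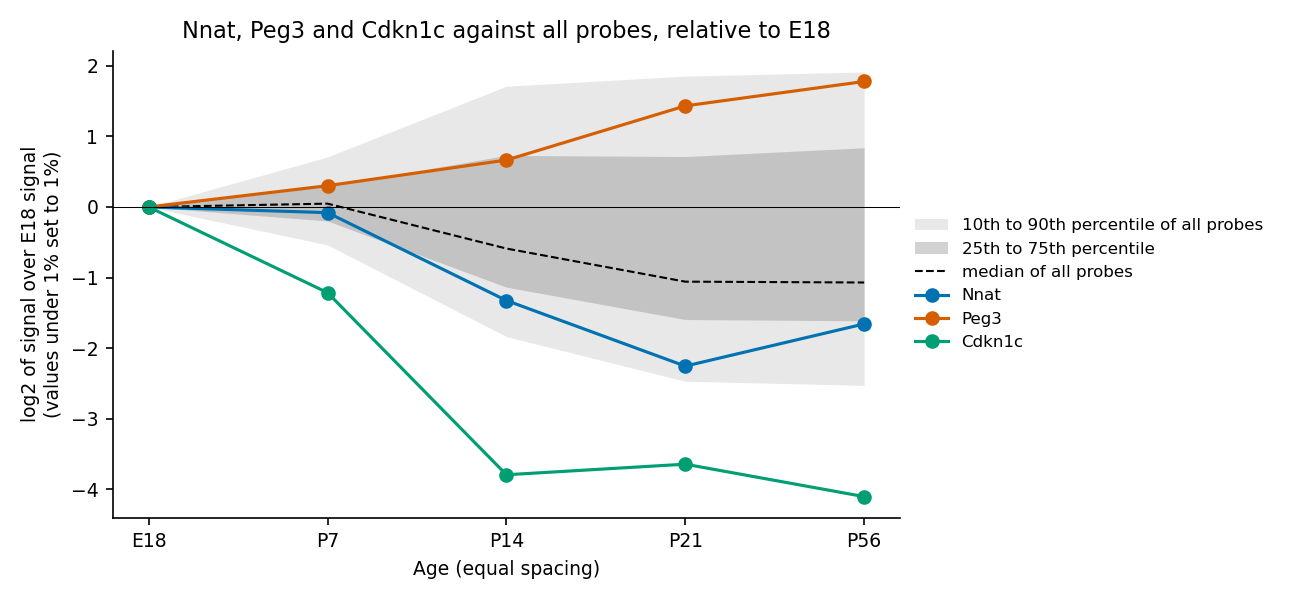
Log2 of the signal at each age over the signal at E18 (vertical axis) for Nnat, Peg3 and Cdkn1c, with all 897 probes as the dashed median and shaded ranges (25th to 75th percentile dark, 10th to 90th pale). At P56 the median probe is at -1.07, Cdkn1c at -4.11, Nnat at -1.66 and Peg3 at 1.78.

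On the deposited scale 0 of the 3 genes passed 2-fold either way from P14 to P21, where 16.4% of all probes did. From P21 to P56 it was again 0 of the 3, beside 4.91% of all probes. From P14 to P21 Peg3 passed with columns divided by their medians (1.16), where 6.80% of all probes rose and 5.69% fell. Cdkn1c passed in that step with quantile normalization (2.14), where 6.24% rose and 4.24% fell.

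Other genes with reported imprinting were taken from a list of 67, of which 6 had a probe, the 3 genes above among them. From E18 to P56 Peg3 was the 1 that rose and the other 5 fell, with a median of -1.46. For all probes the median was -1.07, and 22.6% rose and 52.5% fell. The 3 genes above were chosen partly by these values, so the count and median of the 6 are only a description. They cannot show whether imprinted genes differ from all probes. Mest, Ndn and Dcn are the measured genes outside that choice, and all fell on the deposited scale. The list itself was made with earlier results of these data known. Mest, a paternally expressed gene of a hydrolase-like protein, came closest to Cdkn1c in shape: 100% at E18, 51.6% at P7, 18.0% at P14, 8.65% at P21 and finally 11.1% at P56, a fall of 9.0-fold. Ndn, the paternally expressed necdin gene of postmitotic neurons, stood at 100%, 74.2%, 64.1%, 46.3% and 49.9%, a fall of 2.0-fold that lies at the threshold. Dcn, which encodes the matrix proteoglycan decorin and is imprinted in placenta, stood at 99.0%, 87.1%, 41.5%, 32.5% and 41.2%, a fall of 2.40-fold.

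Nnat, Mest, Ndn and Dcn were all lowest at P21, as were 284 of the 897 probes (31.7%), and Cdkn1c was lowest at P56, as were 298 (33.2%). With columns divided by their medians, and likewise with quantile normalization, 2 of the 6 fell and not 5, beside 16.4% and 23.0% of all probes. These 2 were Cdkn1c and Mest, of which only Mest was not chosen by its values. The genes that no longer passed were Nnat, Ndn and Dcn, and Ndn stood at 0.0065 with column medians, so its direction depends on the scale.

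**Figure D3:**
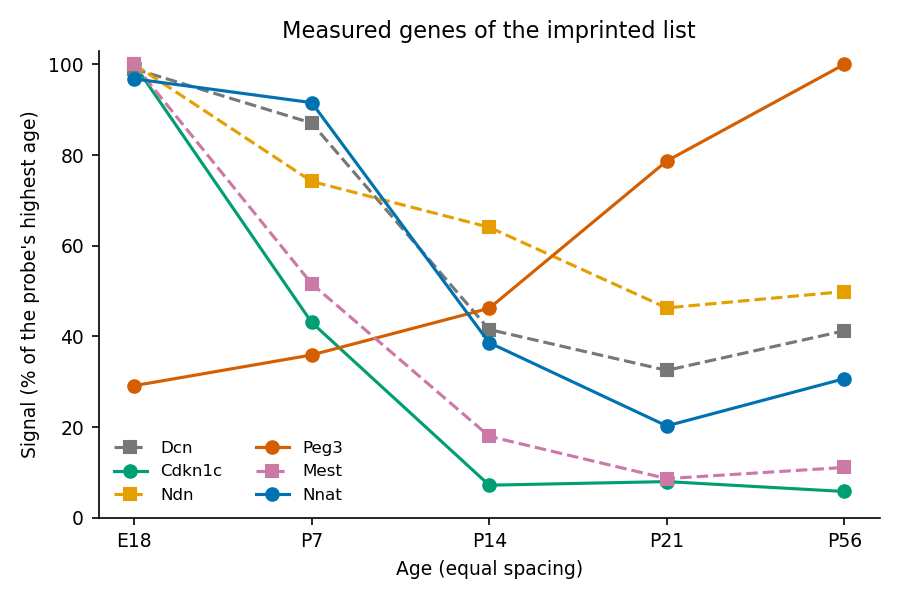
Signal as the percent of the probe's highest age (vertical axis) at the 5 ages (horizontal axis, equally spaced) for the 6 measured genes of the imprinted list, 1 probe each. Peg3 climbs from 29.1% to 100%, while the other 5 start at 96.8% or above and end between 5.81% and 49.9%.

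Cdkn1c was set beside the other CDK inhibitor measured and the kinases and cyclins that p57 and its relatives bind. Of 8 CDK inhibitor genes 2 had probes. Cdkn1a, which encodes p21 and belongs to the same family as p57, did not follow Cdkn1c. Its first probe stood at 53.7%, 48.8%, 100%, 54.9% and 31.8% and its second at 58.7%, 46.4%, 100%, 58.6% and 30.7% from E18 to P56. Both probes of Cdkn1a rose from P7 to P14, by 2.05-fold and 2.16-fold, in the step in which Cdkn1c fell 5.98-fold. In that step 14.4% of all probes rose.

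Of 14 genes in the list of cyclins, CDKs and Pcna 9 were measured, by 10 probes. All 10 probes fell from E18 to P56, as did 52.5% of all probes. After scaling by column medians 8 of the 10 fell, beside 16.4% of all probes. Ccne1 and the first probe of Ccnd1, the cyclin D1 gene, were then at -0.47 and -0.87. With quantile normalization 9 fell, beside 23.0% of all probes, with Ccne1 at -0.63. From E18 to P7, while Cdkn1c fell, 0 of the 10 fell and 1 rose, Ccnd2, the cyclin D2 gene, from 49.5% to 100%, in a step where 5.8% of all probes rose. The median of the 10 probes was 92.7% at P7, when Cdkn1c was at 43.1%. From P7 to P14 9 of the 10 fell, beside 24.7% of all probes, to a median of 24.4%, and the exception was Ccne1, the cyclin E1 gene, at 74.7% and 75.8%. With columns divided by their medians 8 fell in this step, beside 11.7% of all probes, the first probe of Ccnd1 being at -0.88. From P14 to P21 5 of these probes fell, as did 13.2% of all probes, while Cdkn1c stood at 7.20% and 7.99%. With quantile normalization 2 of the 10 fell in that step, beside 4.24% of all probes. Cdk1, the kinase of mitosis, went from 91.9% at E18 to 95.3% at P7 and 9.91% at P14, and Cdk4, the partner of D-type cyclins, from 99.1% to 87.9% and 27.0%.

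**Figure D4:**
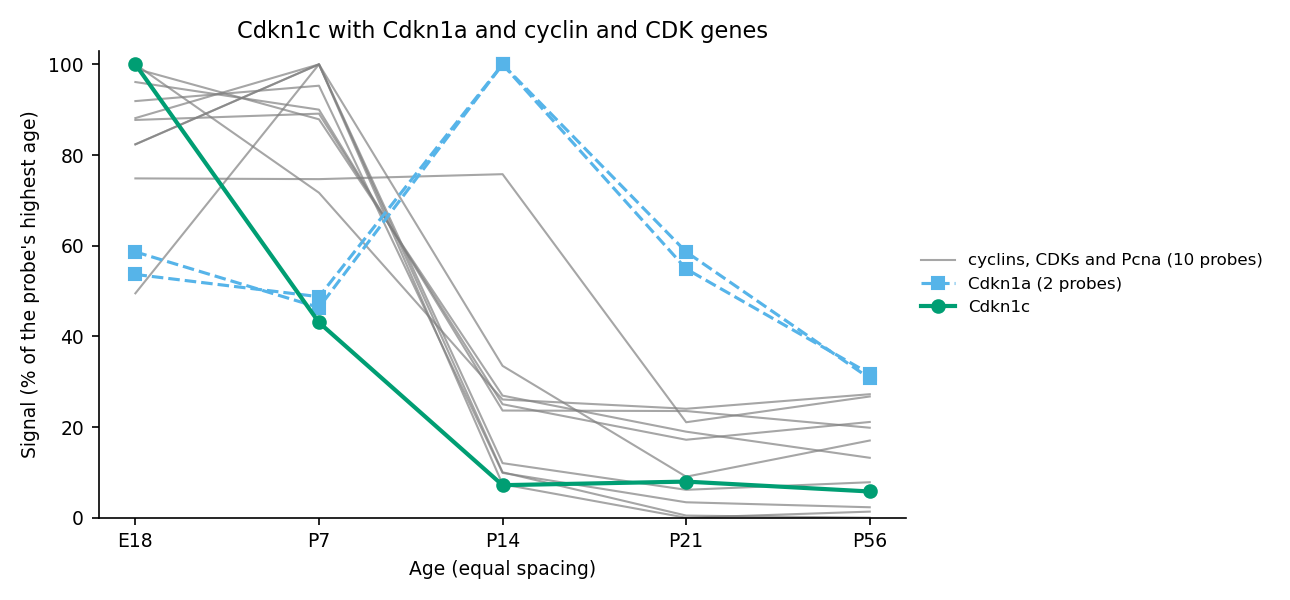
Signal as the percent of the probe's highest age (vertical axis) at the 5 ages (horizontal axis, equally spaced) for Cdkn1c, the 2 probes of Cdkn1a and the 10 probes of cyclins, CDKs and Pcna. At P7 Cdkn1c is at 43.1% while the 10 grey lines lie between 71.7% and 100%, and at P14 both Cdkn1a probes are at 100%.

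For Nnat, the related list was that of the endoplasmic reticulum calcium pumps and their regulators, with 2 of 9 genes measured by 3 probes. All 3 rose from E18 to P56, against 22.6% of all probes. Atp2a2, the widely expressed pump gene, stood at 24.4% at E18, 38.7% at P7, 63.9% at P14, 100% at P21 and finally 93.2% at P56, which is a rise of 3.83-fold. It was highest at P21, the age at which Nnat, like 31.7% of all probes, was lowest. The low of Nnat cannot be placed in both experiments, and a relation between these genes was not tested. The first probe of Atp2a3, the gene of the pump abundant in Purkinje cells, rose 23.7-fold, and the second, at 0.08% at E18, was at least 58.7-fold higher at P56 when values under 1% are set to 1%. For Peg3, none of the 8 listed partner genes, such as Siah1a, Bax and Trp53, was among the single-symbol probes.

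Markers of other cells also moved with age. Of the 8 markers of meninges and connective tissue 6 were measured, and all 6 fell from E18 to P56, beside 52.5% of all probes. With columns divided by their medians 4 fell, without Dcn and Col1a1, and with quantile normalization 5, without Dcn. Under these scalings 16.4% and 23.0% of all probes fell. Values of the 6 connective tissue markers lay between 95.9% and 100% at E18, between 62.3% and 87.1% at P7, and between 23.0% and 42.3% at P14. The range was then 13.2% to 35.7% at P21 and ended at 12.1% to 41.2% in the adult. In the deposited means their range at P7 lies above the 43.1% of Cdkn1c, and at P14 above its 7.20%. At P7 1 experiment of Cdkn1c can have been as high as 86.2%, which reaches into that range. Dcn is in both this list and the imprinted one. Of the endothelial and pericyte markers 3 of 8 were measured, and all fell, beside 52.5% of all probes. They went from 86.0% to 100% at E18 down to 11.2% to 27.8% at P56. After scaling by column medians 2 of these 3 fell, without Kdr, beside 16.4% of all probes. Choroid plexus markers, 2 of 4 measured, were at 100% at E18, 56.7% to 70.8% at P7, 17.1% to 23.1% at P14 and 27.7% to 62.9% at P56.

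Granule cell progenitor markers, 2 of 5 measured, stood at 89.5% to 100% at P7 and 10.1% to 17.9% at P14. Markers of dividing cells, 4 of 5 measured, stood at 89.1% to 100% at P7 and 7.40% to 25.1% at P14. Cdk1, Pcna and Ccna2 among these, and Ccnd2 among the progenitor markers, are the same probes as in the cyclin and CDK list. Oligodendrocyte markers, 3 of 6 measured, were between 0.38% and 1.08% at E18 and between 46.8% and 60.4% at P56, and astrocyte markers, 3 of 5 measured, between 6.23% and 11.3% and between 44.2% and 100%. Of the neuron markers 2 of 5 were measured, and Snap25 rose from 18.8% to 100% while Nefm fell from 100% to 32.7%, a call lost with columns divided by their medians. The part of any of these cells in the levels of Nnat, Peg3 and Cdkn1c was not tested.

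The 5 nearest profiles of each gene were found among the other 786 single-symbol probes by the root mean square difference of log2 percent over the 5 ages. Neighbours were picked by these same values, so a shape shared with the gene follows from the choice and is only a description. Those of Cdkn1c were Mfap2, a gene of extracellular microfibrils (0.36), Sst, the somatostatin gene (0.42), Ebf3, a transcription factor gene (0.48), Sfrp2, a secreted Wnt antagonist gene (0.49), and Syt5, a synaptotagmin gene (0.49). All 5 were at 100% at E18, and on the deposited scale all 5 are also among the genes that fell in both of the first steps. Mfap2 stood at 34.3% at P7 and 8.68% at P14, and Sst at 48.0% and 10.2%.

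Nnat lay closest to Cdt1, a licensing factor gene of DNA replication (0.14), which stood at 81.0%, 100%, 39.7%, 19.1% and 28.8%. Next came Mfng, a glycosyltransferase gene of the Notch pathway (0.15), Psme2, a proteasome activator gene (0.19), Notch3, a Notch receptor gene (0.19), and Snrpe, a splicing protein gene (0.20). All 5 were lowest at P21, as were 31.7% of all probes, and higher at P56, though Snrpe only went from 25.15% to 25.96%. Peg3 lay closest to Napb, a gene of the vesicle fusion cycle (0.13), which stood at 32.5%, 37.1%, 54.8%, 81.6% and 100%. Then followed Csrp1, a LIM domain protein gene (0.17), Stard10, a lipid transfer gene (0.20), Ly6c2 (0.22) and Tubb4a, a neuronal and oligodendrocyte tubulin gene (0.24).

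None of the 3 genes was among another's nearest profiles. In order of distance from Nnat, Peg3 was number 630 and Cdkn1c number 684 of the 786. Seen from Cdkn1c, Nnat was number 147 and Peg3 number 600. Seen from Peg3, Nnat was number 629 and Cdkn1c number 752. The choice of distance matters: with differences in percent, 1 of the 5 neighbours of Nnat, 2 of those of Peg3 and 3 of those of Cdkn1c were kept.

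**Figure D5:**
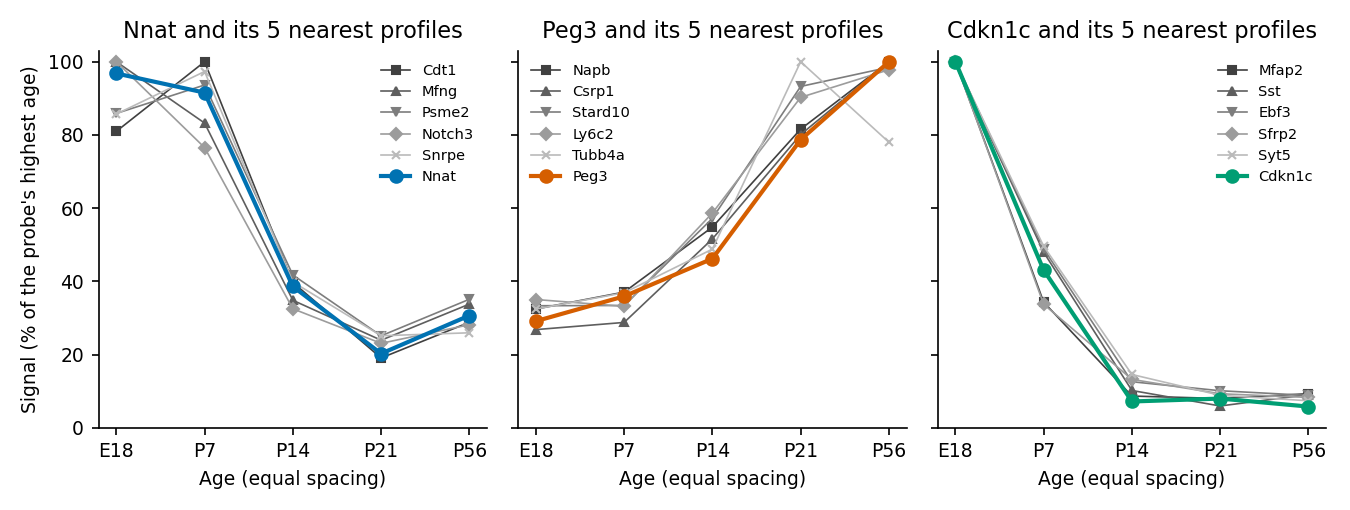
Signal as the percent of the probe's highest age (vertical axis) at the 5 ages (horizontal axis, equally spaced) for each of the 3 genes (coloured) and its 5 nearest profiles (grey). The neighbours of Cdkn1c all start at 100% at E18, those of Nnat are lowest at P21, and 4 of the 5 neighbours of Peg3 are highest at P56, Tubb4a being highest at P21.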

How the data were processed

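Total RNA of mouse cerebellum at 5 ages was hybridised to arrays. Per the labels, each column the authors deposited averages the signal of 2 array experiments. The animals behind them, the scanner, the normalization and the choice of probes are each not stated in those labels. That the deposited unit is percent of the probe's highest age was inferred from the values: of 897 probes 420 are at exactly 100 at 1 age and none exceeds it. Symbols came from the platform annotation, which can be old, and 787 probes have 1 symbol. With Python 3.11.15, numpy 2.4.6 and pandas 2.3.3, values under 1% (20 of 4485, none in the 3 genes) were set to 1% before log2, and 2-fold was the rule for a change. If both experiments lie between 0% and 100%, a mean v limits each to between 2v minus 100 and 2v, and means over 50 points apart fix the direction in both. Genes named were the 3 genes, measured genes of the related lists and the 5 nearest profiles of each; single markers and genes that fell in both early steps were named after their values were seen. The 3 genes and all lists were chosen with earlier results of these data known. Promoter windows came from RefSeq. Alternatives were other floors, a pseudocount of 1%, scaling by column medians, quantile normalization, other fold thresholds and other distances.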

Additional observations from a re-analysis of the deposited data

How the results depend on the processing

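Of 75 recalculations for the 3 genes (5 comparisons, 5 alternatives each), 69 kept their side of the 2-fold rule. The 15 with the smallest value as the floor could not change, because no value of the 3 genes is under 1%. The floor at the 10th percentile and the pseudocount each kept all 15. Column medians kept 12 of 15, and quantile normalization also kept 12 of 15. The exceptions were Nnat from E18 to P56 (-0.65 after scaling by column medians, -0.98 with quantile normalization) and from P7 to P14 (-0.67 and -0.99), Peg3 from P14 to P21 (1.16 with column medians) and Cdkn1c from P14 to P21 (2.14 with quantile normalization). Dividing by column medians moved the median of all probes from E18 to P56 by 1.01. Among other named genes Ndn from E18 to P56 turned to 0.0065 with column medians and Mest from P14 to P21 to 0.026 with quantile normalization, and the count of imprinted genes that fell went from 5 to 2 with either. Of the 10 cyclin and CDK probes, 8 fell from E18 to P56 with column medians and 9 with quantile normalization. Counts of all probes moved as follows, each pair being probes higher and lower. From E18 to P56 they were 203 and 471; 272 and 147 with column medians, 246 and 206 with quantile normalization, and 135 and 234 at 3-fold. From E18 to P7 they were 52 and 25; 24 and 21 when values were floored at the 10th percentile, 43 and 57 with quantile normalization, 129 and 81 at 1.5-fold, and 20 and 1 at 3-fold. From P7 to P14 they were 129 and 222; 238 and 105 with column medians, 224 and 164 with quantile normalization, 213 and 447 at 1.5-fold, and 53 and 104 at 3-fold. From P14 to P21 they were 29 and 118; 27 and 63 with that floor, 61 and 51 with column medians, 56 and 38 with quantile normalization, 63 and 311 at 1.5-fold, and 4 and 38 at 3-fold. From P21 to P56 they were 24 and 20; 13 and 10 with that floor, 82 and 78 at 1.5-fold, and 9 and 4 at 3-fold. Thresholds change counts by construction; the cause of the other shifts was not tested. No gene of the 3 had more than 1 probe, so averaging probes was not run. No paired analysis was possible because each age has 1 column. Signal over background is not in the values used here, so how near a low percent lies to background is unknown.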
